A study of Arabidopsis thaliana with 20 samples.

Results

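The signals of 4 genes of the plastid genome that encode ribosomal proteins, rpl20, rpl33, rps3 and rps19, were followed through a day and night in leaves of Arabidopsis thaliana. Each gene is read by 1 probe set, that is, by several short probes for its transcript on the array. They are 4 of 13356 genes named by a probe set of a single gene. They were selected on the measured genotype difference, because rpl20 was lower and the other genes were higher in the Atss3 mutant than in wild type over the day. That difference is therefore described below and not tested. As background only, limma called 0.0194% of the 15470 probe sets kept for the fit for that difference at an adjusted p under 0.05, and nothing is read from this for the 4 genes.

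The study measured rosette leaves of Atss3, a mutant in starch synthase 3, and of wild-type plants (WT). Days in the growth chamber had 8 h light, nights lasted 16 h, and both genotypes were harvested in the light at 1 and 4 h after it came on and in the dark at 8.5, 12 and 16 h. Each of the 10 groups of genotype and time has 2 arrays, and each array carries RNA pooled from 16 plants. The labels state that the whole experiment was done 2 times with independent randomizations, here called run 1 and run 2. No probe set was tied by name to the mutated gene, so no signal of it stands beside the mutant label, and the labels used here do not say which allele Atss3 carries. P-values measure the spread between pools of plants, not between single plants.

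Plastids make part of their proteins on their own ribosomes, which are of the bacterial type. The plastid genome encodes some of the proteins of these ribosomes and the nucleus encodes the rest, so a working ribosome needs genes of both compartments. rpl20 and rpl33 encode proteins of the large subunit, and rps3 and rps19 proteins of the small subunit, which reads the messenger RNA. In tobacco, rpl20 is essential, while plants without rpl33 grow normally unless they are cold. Plastid genes are transcribed in groups, and their messengers mostly lack stable poly(A) tails. The labels used here do not say how the RNA was primed for labelling.

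In the plastid gene order of the TAIR10.1 gene table, rpl33 (ArthCp043) lies between psaJ and rps18, and rpl20 (ArthCp045) between rps18 and rps12, with clpP after it. rps3 (ArthCp061) lies between rpl16 and rpl22, and rps19 (ArthCp063) between rpl22 and rpl2. The genes thus form 2 neighbourhoods, with only rps18 between rpl33 and rpl20, and only rpl22 between rps3 and rps19. This order is by position alone. The strand was not used, so the order does not show which genes are transcribed together.

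The deposited values are linear signals scaled by the authors to a common mean on every array, so a change in the total amount of RNA cannot be seen in them. In pooled leaf tissue, fewer cells of a type and less RNA per cell cannot be told apart. Signals of different probe sets are not compared, because a probe set's brightness also depends on its oligonucleotides. All 4 genes were above the 40th percentile of every array, which lay between 80.5 and 103.8. Of the 7 green leaf markers listed, 3 had a named probe set. Among them RCA, which encodes Rubisco activase, averaged 21420 ± 4560 in Atss3 and 19880 ± 3660 in WT (SD, n = 10 arrays each). The root marker PYK10 averaged 301.5 ± 159 in Atss3 and 299.5 ± 172 in WT, and the flower and seed markers had no named probe set.

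The 5 WT arrays of run 1 stood apart in an RNA control. GAPDH is read by control probe sets at its 3' end and at its 5' end, and the log2 signal of 3' minus 5' was 0.38 ± 0.034 in Atss3 of run 1 and 0.43 ± 0.203 in Atss3 of run 2, against −0.13 ± 0.109 in WT of run 1 and 0.30 ± 0.093 in WT of run 2 (SD, n = 5 arrays each). The same value for actin averaged 2.61 in Atss3 of run 1 and 2.71 in Atss3 of run 2, against 2.92 in WT of run 1 and 2.80 in WT of run 2. Every genotype difference is for this reason given for each run, and run 2 alone is the value without those 5 arrays.

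rpl20, whose protein enters the large subunit early in its assembly in bacteria, was lower in Atss3. In run 1 its signal, in the order of the 5 harvests, was 344.3, 450.8, 210.4, 286.7 and 351.2 in Atss3, against 489.2, 384.9, 610.7, 395.1 and 409.0 in WT. In run 2 it was 388.2, 311.6, 312.2, 260.8 and 229.3 in Atss3, against 490.3, 530.6, 474.8, 551.1 and 656.9 in WT. All 5 Atss3 arrays of run 2 lay below all 5 WT arrays, as 0.252% of the 15470 probe sets kept for the fit did. In run 1 the genotypes overlapped, because Atss3 was the higher one at 4 h.

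Over the day rpl20 averaged 314.5 ± 73.0 in Atss3 and 499.3 ± 90.5 in WT (SD, n = 10 arrays each). The log2 difference, Atss3 minus WT, was −0.68 (SE 0.138), which puts WT 1.60-fold above Atss3. It was −0.50 ± 0.649 in run 1 and −0.86 ± 0.455 in run 2 (SD over 5 pairs of arrays). Atss3 was the lower array in 9 of 10 pairs, 4 of 5 in run 1 and 5 of 5 in run 2. Both Atss3 arrays lay below both WT arrays at 1, 8.5, 12 and 16 h, and at 4 h they overlapped. At 8.5 h this held for 14.8% of all kept probe sets, and the share was not counted at the other times.

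**Figure D1:**
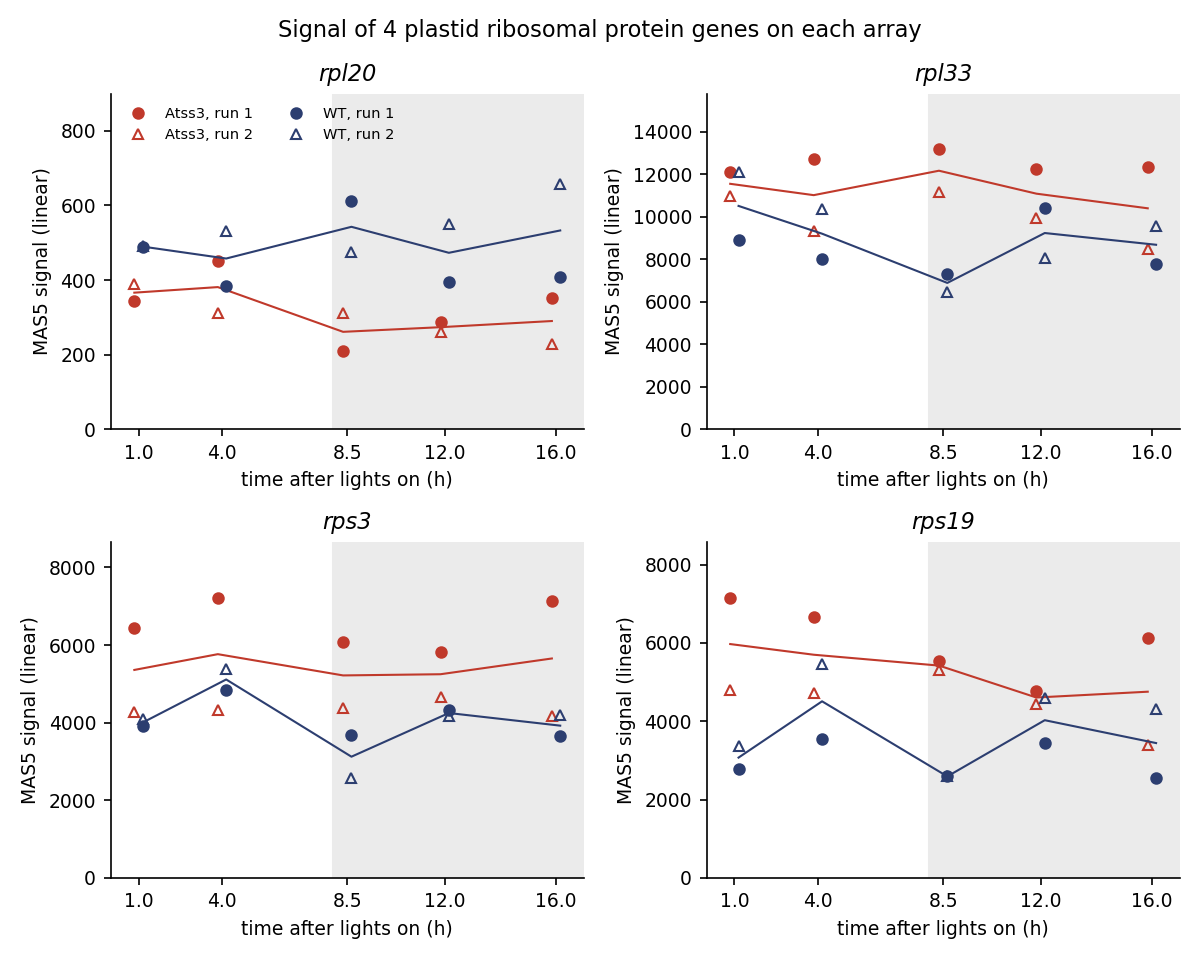
MAS5 signal (linear scale, from 0) of rpl20, rpl33, rps3 and rps19 on each array against hours after lights on, with Atss3 in red, WT in blue, filled circles for run 1, open triangles for run 2, lines through the means of both runs and the dark period shaded. For rpl20 each Atss3 point except that of run 1 at 4 h lies below the WT point of the same run and time. For the other genes the filled red circles of run 1 lie above all filled blue ones while the run 2 triangles mix.

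rpl33, the large-subunit gene that lies upstream of rps18, was higher in Atss3 in run 1. Its signal there over the 5 harvests was 12112, 12717, 13175.5, 12243 and 12344 in Atss3, against 8924, 8026, 7313, 10418 and 7802 in WT. In run 2 it was 11006, 9333, 11175, 9947 and 8468 in Atss3, against 12112, 10395.5, 6473, 8066 and 9577 in WT. All 5 Atss3 arrays of run 1 exceeded all 5 WT arrays, and in run 2 the genotypes overlapped. The log2 difference over the day was 0.35 (SE 0.108), a 1.27-fold higher signal in Atss3. It was 0.57 ± 0.238 in run 1 and 0.12 ± 0.421 in run 2, with Atss3 higher in 5 of 5 and 2 of 5 pairs.

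rps3, whose protein sits where the messenger enters the small subunit, was likewise higher in Atss3 in run 1. In run 1 its signal over the 5 harvests was 6452, 7214, 6068, 5825 and 7138 in Atss3, against 3907.5, 4841, 3677, 4331 and 3648 in WT. In run 2 it was 4266, 4317, 4367, 4671 and 4170.4 in Atss3, against 4097, 5385, 2568, 4165 and 4198 in WT. The genotypes were apart in run 1 and overlapped in run 2, where the Atss3 arrays held a narrower range than the WT arrays. Over the day the log2 difference was 0.41 (SE 0.112), 1.33-fold. It was 0.68 ± 0.201 in run 1 and 0.13 ± 0.397 in run 2, with Atss3 higher in 5 of 5 and 3 of 5 pairs.

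rps19, which encodes a protein of the head of the small subunit, had the widest gap of the higher genes. In run 1 its signal over the 5 harvests was 7147, 6665, 5528, 4759 and 6112 in Atss3, against 2781, 3556, 2590.2, 3452 and 2559.6 in WT. In run 2 it was 4793, 4729.7, 5312, 4450.2 and 3394.5 in Atss3, against 3359.8, 5459, 2590.0, 4599 and 4323 in WT. No WT array of run 1 reached the lowest Atss3 array of that run, and in run 2 Atss3 was above WT at 1 and 8.5 h and below it at the other times. The log2 difference over the day was 0.60 (SE 0.151), 1.52-fold. It was 1.02 ± 0.354 in run 1 and 0.19 ± 0.576 in run 2, with Atss3 higher in 5 of 5 and 2 of 5 pairs.

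In run 1, all Atss3 arrays lay above all WT arrays for these 3 genes, as for 1.51% of kept probe sets, and under quantile normalization this held for rps3 and rps19 but not for rpl33. At 8.5 h both Atss3 arrays exceeded both WT arrays for rpl33, rps3 and rps19, as they did for 19.0% of kept probe sets. Both Atss3 arrays were also the higher ones for rps3 at 1 and 12 h and for rps19 at 1 h, where the share was not counted. At 8.5 h run 2 came close to run 1, with log2 differences of 0.85 in run 1 and 0.79 in run 2 for rpl33, 0.72 and 0.77 for rps3, and 1.09 and 1.04 for rps19. At 12 h rpl33 was as close, with 0.23 in run 1 and 0.30 in run 2, while rps3 gave 0.43 and 0.17 and rps19 0.46 and −0.05. The difference of run 2 minus run 1 over the day was −0.36 for rpl20, −0.45 for rpl33, −0.55 for rps3 and −0.83 for rps19. Run 2 thus lay below run 1 for each gene, which took the difference of rpl20 further from 0 and that of the others closer to it.

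With the GAPDH value of each array as a covariate, the difference over the day was −0.81 for rpl20, 0.18 for rpl33, 0.24 for rps3 and 0.29 for rps19, so the values of rpl33, rps3 and rps19 came closer to 0 and that of rpl20 did not. The median log2 signal of an array, taken over all 22746 probe sets that are not controls, was itself higher in Atss3. The difference was 0.106 in run 1 and 0.035 in run 2. Centring every array on its median gave −0.75, 0.28, 0.34 and 0.53 over the day for rpl20, rpl33, rps3 and rps19.

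**Figure D2:**
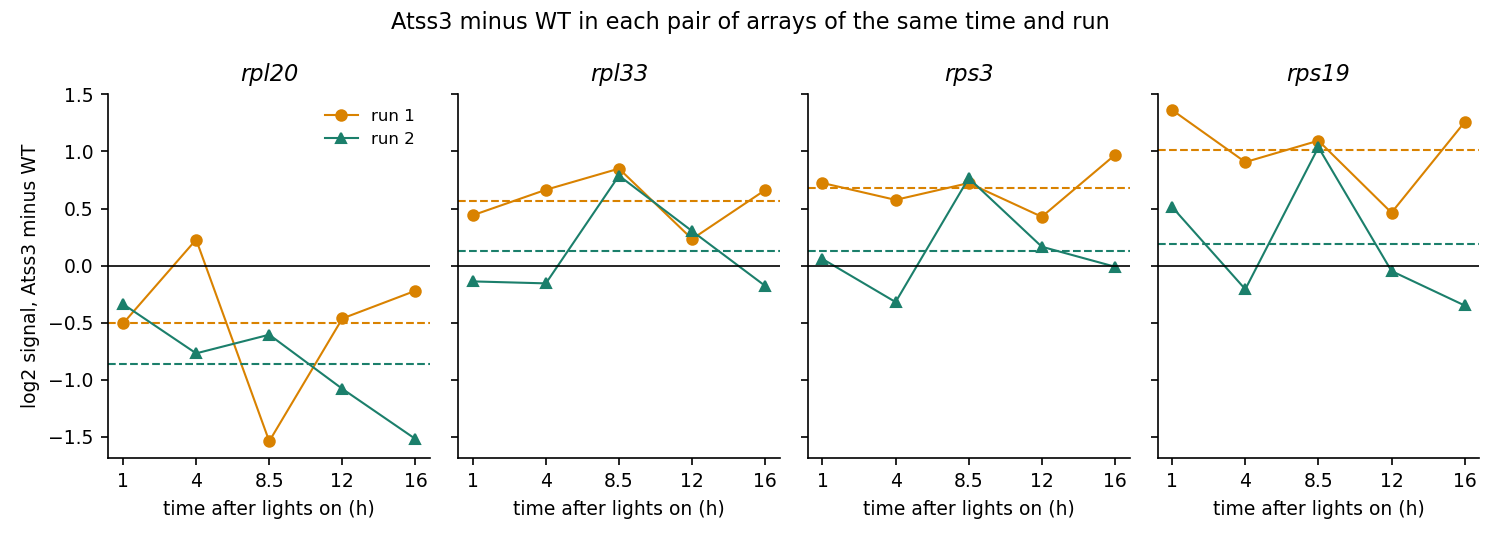
Log2 signal of Atss3 minus WT (vertical axis) in each pair of arrays that share time and run, against hours after lights on, for the 4 genes, with run 1 in orange, run 2 in green and each run's mean dashed. In rpl20 9 of 10 points lie below 0, and in rpl33, rps3 and rps19 the runs meet at 8.5 h and are apart at 1, 4 and 16 h. At 12 h the runs are closer in rpl33 than in rps3 and rps19.

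The gap between rpl20 and the mean of rpl33, rps3 and rps19 changed less between the runs than the difference of each gene did. The difference of rpl20 minus the mean difference of rpl33, rps3 and rps19 was −1.13 on the log2 scale (SD 0.593 over 10 pairs). It was −1.26 ± 0.733 in run 1 and −1.01 ± 0.464 in run 2 (SD, n = 5 pairs each), and below 0 in 10 of 10 pairs. The pairs ran from −2.43 to −0.49 in run 1 and from −1.47 to −0.48 in run 2. Taken gene by gene the gap was −1.03 against rpl33, −1.09 against rps3 and −1.28 against rps19, each below 0 in 10 of 10 pairs. In run 1 and run 2 it was −1.07 and −0.99 against rpl33, −1.18 and −0.99 against rps3, and −1.52 and −1.05 against rps19. Against rps19 the gap thus changed more between the runs than the differences of rpl20 and rpl33 did. A shift common to all plastid signals of an array would cancel in this gap. In run 1, however, the differences of plastid genes ran from −1.51 for rpl36 to 2.88 for atpI, so their shift was not common. The WT signals of atpI in run 1 were low, at 25.59 to 76.86, under the 40th percentile of every array. The next highest difference was that of rpl16, at 2.34, with no signal under 977.4 in that run. The median of the 68 measured plastid-encoded genes was 1.01 in run 1 and −0.34 in run 2. To that median rpl20, at −0.50 and −0.86, stood closer in run 2. The 4 genes were chosen for the gap between them, so it is given without a test.

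Time of day, on which the genes were not chosen, was tested in limma with Benjamini-Hochberg adjustment over all 15470 kept probe sets. None of the 4 genes passed an adjusted p of 0.05 for the time course over both genotypes, a test that 65.5% of kept probe sets passed. Their adjusted p ran from 0.317 to 0.797. In Atss3 alone 0 of 4 passed, against 48.0% of kept probe sets, with adjusted p from 0.382 to 0.99. In WT alone 0 of 4 passed, against 44.2%, with adjusted p from 0.198 to 0.93. No difference between times was thus detected for these genes beyond the spread between arrays.

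Within each genotype the times could mostly not be put in order. For rpl20, neighbouring times in the order of signal overlapped in 4 of 4 cases in Atss3 and in 4 of 4 in WT. In Atss3 rpl20 was highest at 4 h, with a mean of 381.2, and lowest at 8.5 h, with 261.3, whereas in WT it was highest at 8.5 h, with 542.8, and lowest at 4 h, with 457.8. rpl33 overlapped in 4 of 4 cases in Atss3 and in 3 of 4 in WT, where 8.5 h, with a mean of 6893, lay below all other times. rps3 overlapped in 4 of 4 cases in Atss3 and 2 of 4 in WT, whose highest time was 4 h, at 5113, and whose lowest was 8.5 h, at 3123. rps19 overlapped in 3 of 4 cases in each genotype, with its lowest WT mean, 2590.0, again at 8.5 h. The WT means of rpl33, rps3 and rps19 were thus lowest at 8.5 h, but in run 1 the WT signals of rps3 and rps19 were slightly lower at 16 h, and no WT time course passed its test.

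Steps between neighbouring times, over both genotypes, gave 20 tests on the 4 genes, of which 0 passed, with adjusted p from 0.084 to 0.962. Among kept probe sets 33.9% passed for 4 h minus 1 h, 34.3% for 8.5 h minus 4 h, 19.8% for 12 h minus 8.5 h, 3.96% for 16 h minus 12 h and 43.5% for 1 h minus 16 h. The smallest p belonged to rps3 at 8.5 h minus 4 h, with a log2 difference of −0.42 (SE 0.178, limma adjusted p = 0.084). Without the 5 WT arrays of run 1 that step passed, at −0.59 (SE 0.150, limma adjusted p = 0.0257), where each WT time rests on 1 array assumed to vary like the rest.

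Dark minus light, the mean of 12 and 16 h minus that of 1 and 4 h, was not called for any of the 4 genes in either genotype. Among kept probe sets it was called for 38.3% in Atss3 and for 34.5% in WT. For rpl20 the log2 value was −0.41 in Atss3 (limma adjusted p = 0.158) and 0.06 in WT (0.85), with an SE of 0.218 each. For rps19 it was −0.32 in Atss3 (limma adjusted p = 0.312) and −0.01 in WT (0.976), with an SE of 0.239 each. rpl33 gave −0.08 in Atss3 and −0.13 in WT (SE 0.171), and rps3 −0.02 in Atss3 and −0.15 in WT (SE 0.178). Here the effects of darkness and of the hour of the day cannot be told apart.

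The genotype difference was not shown to vary over the day. The limma test of genotype by time called 0 of 4 genes, with adjusted p from 0.883 to 0.931, and 0.00646% of kept probe sets, 1 in number, while 1099 had an unadjusted p under 0.05. The difference between genotypes in dark minus light called 0 of 4, with adjusted p from 0.956 to 0.992. It called 0.0% of kept probe sets, and 783 of them had an unadjusted p under 0.05. For rpl20 this difference was −0.47 with an SE of 0.308, so its own error spans much of its size.

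The other plastid-encoded ribosomal proteins give the setting. Of 17 further genes listed, 11 were measured. Their median log2 difference over the day, Atss3 minus WT, was 0.48, against 0.02 over all kept probe sets. In run 1 it was 1.07, with 9 of 11 genes above 0. Run 2 gave −0.07, with 3 of 11 above 0. Most of these genes thus had a higher signal in Atss3 in run 1 and a lower one in run 2, whereas the run 2 means of rpl33, rps3 and rps19 were slightly above 0.

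Genes beside the 4 show how far neighbours can differ. rps18, a small-subunit gene between rpl33 and rpl20, gave 1.096 in run 1 and −0.05 in run 2, and psaJ, a photosystem I gene on the other side of rpl33, gave 0.76 and −0.06. clpP, which encodes a protease subunit and follows rps12 after rpl20, gave 0.94 in run 1 and −0.34 in run 2. rpl20, at −0.50 and −0.86, was thus below rps18 and clpP in each run.

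In the other neighbourhood, rpl16, a large-subunit gene next to rps3, gave 2.34 in run 1 and −0.59 in run 2. Its signal ran from 5708 to 10200 in Atss3 of run 1, against 977.4 to 1844 in WT of run 1, and WT of run 2 lay between 8261 and 10190. The WT arrays of run 1 were thus the low ones for rpl16. rpl22, a large-subunit gene between rps3 and rps19, gave −0.17 in run 1 and 0.34 in run 2, and rpl14, beyond rpl16, gave 0.85 and −0.72. The genes next to rps3 and rps19 thus did not share 1 direction in either run.

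Elsewhere on the plastid genome, rps2 gave 1.91 in run 1 and −0.01 in run 2, rps4 gave 1.18 and −0.23, and rps14 gave 1.07 and 0.05. rpl32 gave 1.55 and −0.07, rps16 gave 0.86 and −0.42, and rps15 gave 0.16 and −0.80. All of these were higher in Atss3 in run 1, and of them rps14 alone was also above 0 in run 2. rpl36 went the other way, with −1.51 in run 1 and 1.28 in run 2.

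The plastid-encoded RNA polymerase, which transcribes many plastid genes, was measured in 4 of 4 subunits. Their median was 0.31 over the day. Run 1 gave 1.09, with 3 of 4 subunits above 0, and run 2 gave −0.31, with 1 of 4 above 0. rpoB gave 1.04 in run 1 and −0.51 in run 2, rpoC1 gave 1.19 and −0.46, and rpoC2 gave 1.15 and −0.16. rpoA, which is cotranscribed with ribosomal protein genes, gave −0.55 and 0.77 and was the subunit with the opposite signs.

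Over all 68 measured plastid-encoded genes, the median difference was 1.01 in run 1, where 61 genes were above 0. It was −0.34 in run 2, where 13 genes were. The median over all kept probe sets was 0.03 in run 1 and 0.00 in run 2. By sign, 54 of the 68 were above 0 in run 1 and below 0 in run 2, and 7 were above 0 in both runs, among them rpl33, rps3 and rps19. One gene was below 0 in both runs, and that was rpl20. Over the day rpl20 had the lowest difference of the 68, in run 1 the 3rd lowest after rpl36 and rpoA, and in run 2 the 9th lowest. rps19 ranked 8th from the highest over the day, rps3 27th and rpl33 35th. In run 1 those genes ranked 34th, 49th and 52nd from the highest, near or below the middle of the plastid genes, and in run 2 they ranked 6th, 8th and 9th.

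**Figure D3:**
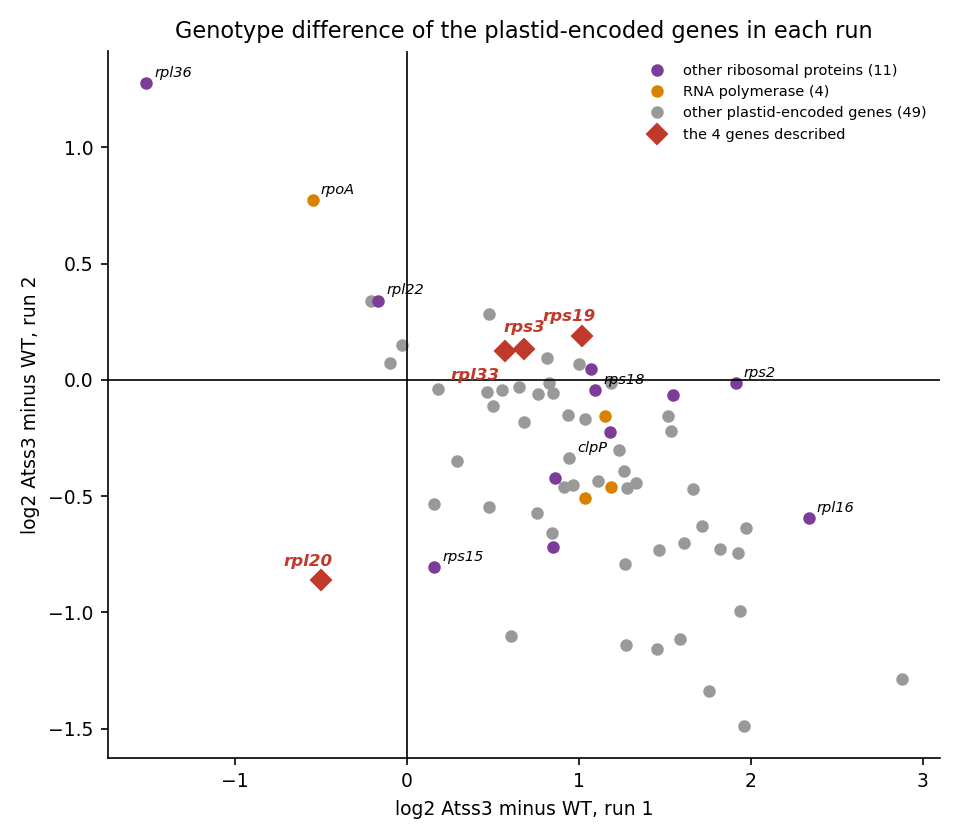
Log2 difference of Atss3 minus WT in run 1 (horizontal) and run 2 (vertical), 1 point for each of 68 plastid-encoded genes, with the 4 genes described as red diamonds, 11 other ribosomal protein genes in purple, 4 RNA polymerase genes in orange and the remaining genes in grey. Of the points, 54 lie at the lower right, rpl33, rps3 and rps19 lie just above 0 in run 2, and rpl20 stands alone at the lower left. The 4 genes were chosen on this difference.

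In dark minus light, 0 of 11 other plastid ribosomal genes and 0 of 4 polymerase genes were called in either genotype. Among kept probe sets 38.3% were called in Atss3 and 34.5% in WT. The median of the 11 was −0.19 in Atss3 with 9 of 11 below 0, and −0.03 in WT with 6 of 11 below 0, against 0.04 and 0.05 over all kept probe sets. No gene of either group passed for a time course in Atss3 or in WT, against 48.0% and 44.2% of kept probe sets. The 4 genes thus shared the absence of a call over time with the other plastid genes of the same machinery. This does not show steady signals. The fit has no term for a genotype difference that changes between runs, so such a change enters the error. The measured nuclear genes of plastid ribosomal proteins had an SE of dark minus light from 0.119 to 0.180. For the 11 plastid genes it ran from 0.182 for rpl22 to 0.682 for rpl16.

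Nuclear genes of the same ribosome could be set beside them. Of 40 nuclear loci listed as encoding plastid ribosomal proteins, 10 were measured. Their median genotype difference was −0.10 over the day, −0.03 in run 1 and −0.17 in run 2. In dark minus light 2 of 10 were called in Atss3 and 2 of 10 in WT, all higher in the dark, against 38.3% of kept probe sets in Atss3 and 34.5% in WT called in either direction. The median of the 10 was 0.24 in Atss3 with 1 of 10 below 0, and 0.05 in WT with 4 of 10 below 0, against 0.04 and 0.05 over all kept probe sets. The 3 with the smallest p in WT are given here. AT5G24490 was higher in the dark by 0.56 in Atss3 (limma adjusted p = 0.00571) and by 0.60 in WT (0.00389), with an SE of 0.134 each. AT4G17560 was higher by 0.70 in Atss3 (limma adjusted p = 0.000867) and by 0.35 in WT (0.0482), with an SE of 0.126 each. AT4G01310 gave 0.30 in Atss3 and 0.25 in WT and was not called. Of 9 listed sigma factors and phage-type polymerases of organelles, 1 was measured. That gene, AT5G15700, gave −0.26 in each genotype without a call and passed for the time course over both genotypes (limma adjusted p = 0.00513). Taken alone, Atss3 passed for the time course and WT did not. Its signals were low, from 14.72 to 177.8, and in WT of run 2 all lay at 21.5 to 42.86, under the 40th percentile of every array.

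**Figure D4:**
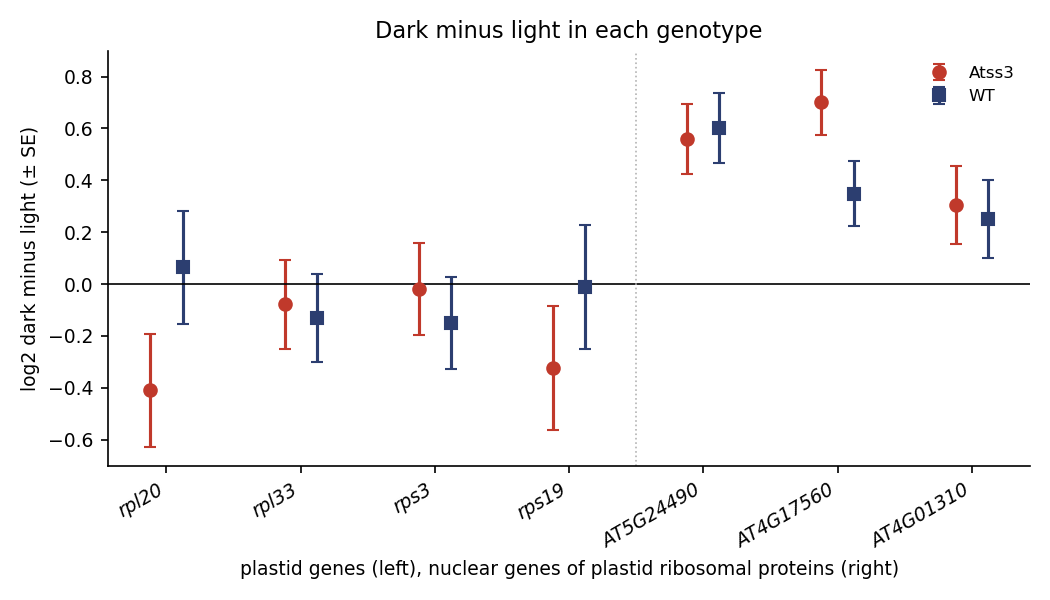
Log2 dark minus light (vertical axis, mean of 12 and 16 h minus mean of 1 and 4 h) with its SE from the fit, for the 4 plastid genes and the 3 of 10 nuclear genes of plastid ribosomal proteins with the smallest p in WT, Atss3 as red circles left of WT as blue squares. The plastid genes lie between −0.41 and 0.06, and AT5G24490 and AT4G17560 lie above 0 in both genotypes.

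The 4 genes were also set against each other across the 20 arrays, where the arrays share their run, genotype and time. Pearson's r of log2 signal was 0.81 for rpl33 with rps3, 0.77 for rpl33 with rps19 and 0.84 for rps3 with rps19. It was −0.38 for rpl20 with rpl33, −0.34 with rps3 and −0.31 with rps19. After the mean of each genotype and time was taken off, which leaves the difference between runs, rpl20 gave 0.45 with rpl33, 0.43 with rps3 and 0.73 with rps19. With 2 arrays a group, the values left are equal in size and opposite in sign. These r thus rest on 10 differences between runs and not on 20 separate arrays. Because the genes were chosen for opposite genotype differences, the negative r of rpl20 across both genotypes restates that choice, and taking off the group means removes it by construction.

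Of the named kept probe sets, those most like rpl20 across the 20 arrays by Pearson's r were DI19 at 0.714, AT3G11745 at 0.633 and AT5G38220 at 0.622. For rpl33 they were AT1G13160 at 0.799, AT2G04460 at 0.785 and the plastid gene ndhI at 0.761. For rps3 they were AT5G16730 at 0.879, AT3G61690 at 0.83 and AT5G47690 at 0.816. For rps19 they were plastid genes throughout, rpoC2 at 0.874, psbI at 0.865 and psbH at 0.853. With the mean of each genotype and time taken off, the first-ranked gene was AT1G13380 for rpl20 at 0.891, NdhL for rpl33 at 0.959, AT3G60380 for rps3 at 0.944 and rpl14 for rps19 at 0.926. Each of these was picked as the highest of 8511 named probe sets, members left out, and r is given as a description. With the group means taken off, each r rests on 10 differences between runs.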

How the data were processed

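Leaf RNA of 20 samples was measured on 1-colour arrays after biotin labelling. The authors deposited linear signal intensity values, made with MAS5 per the submitters' processing notes. Its version is not stated in the labels. On each array the 2% trimmed mean lay at 500.0 to 500.1, so the deposited intensity values had been scaled and were used as they stand.

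Of 22810 probe sets, 64 controls were left out. Signals under 1 were raised to 1 and log2 was taken. Kept were the 15470 probe sets that exceeded the 40th percentile of at least 2 arrays. Names came from a platform annotation table with 13513 probe sets of 1 gene and 503 of several. Of the 13513, 13436 matched the TAIR10.1 gene table, used for names and gene order only. Files name no genome build, and sequences were not used here.

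limma 3.58.1 (R 4.3.3) was fitted to all kept probe sets with a mean for each genotype and time and the run as a block, leaving 9 residual and 3.45 prior degrees of freedom. Tests were 2-sided, with Benjamini-Hochberg adjustment within each contrast. The code was tested on simulated data. Figures used matplotlib 3.10.9, numpy 2.4.6 and pandas 2.3.3 under Python 3.11.15. The number of arrays limits the precision.

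The replicate number marks the run per the labels. Deviations of same-numbered arrays from their group means gave r over 0.1 for 41 of 45 group pairs (median 0.199, from −0.108 to 0.439). Replicates of a group correlated at 0.948 to 0.967.

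The 4 genes and the gene lists were chosen with earlier results of these data known, the 4 genes from the genotype difference. Named beside them were the plastid ribosomal and polymerase genes, the genes next to the 4, the 3 nuclear list genes with the smallest p for dark minus light in WT, and the 3 genes most correlated with each of the 4. Alternatives were quantile normalization, median centring, 64 added before log2, signals raised to the 40th percentile, no filter, no block, single runs, arrays left out and the GAPDH value (3' minus 5') as a covariate.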

Additional observations from a re-analysis of the deposited data

Results flagged for a closer look

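Of 39 groups of values for the 4 genes checked for a sample far from the others, 2 had one by Dixon's criterion, and chance gives about 1 in 20. For rps3 in WT, the run 2 array at 8.5 h, at 2568.4, lay far below the other 9 WT arrays. The gap of rpl20 minus the mean of rpl33, rps3 and rps19 in Atss3 minus WT was −2.43 on the log2 scale in the 8.5 h pair of run 1, far below the other 9 pairs. Both values belong to 8.5 h, the first harvest in the dark, and the cause was not tested.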

How the results depend on the processing

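The direction of the genotype difference was the same for each of the 4 genes, and for the gap of rpl20 to the others, in every alternative that gave a value. The alternatives reuse the values on which the genes were chosen. The unchanged direction is therefore a description and no support for the difference. Leaving out 1 array at a time gave −0.76 to −0.60 for rpl20, 0.29 to 0.41 for rpl33, 0.35 to 0.46 for rps3, 0.51 to 0.70 for rps19 and −1.20 to −1.06 for the gap. Quantile normalization gave −0.71, 0.30, 0.40 and 0.60 for the genes in that order. No member was called for a time course, dark minus light or genotype by time under any alternative, and for steps between times 1 was called, rps3 at 8.5 h minus 4 h without the 5 WT arrays of run 1. Counts over all kept probe sets moved more, and the cause was not tested. For the genotype over the day, 3 as reported, the count was 11 with quantile normalization, 5 with median centring, 8 with 64 added, 86 in run 1 alone, 5 without the WT arrays of run 1 and 2 to 13 with 1 array left out, the highest without WT 8.5 h replicate 1. Without the WT arrays of run 1 the count was 2780 for the time course in WT (6836 as reported), 2506 for dark minus light in WT (5338), 3280 for 4 h minus 1 h (5247), 1471 for 12 h minus 8.5 h (3056) and 43 for 16 h minus 12 h (612), with fewer samples in each. Run 2 alone gave 4852 for the time course over both genotypes (10127). Genotype by time, 1 as reported, was 0 with 64 added, signals raised, no filter, no replicate block, the GAPDH covariate or without the WT arrays of run 1, and 0 to 8 with 1 array left out. The genotype difference in dark minus light gave 0 to 2 with 1 array left out. For 16 h minus 12 h no filter gave 275, the fit with no replicate block 307 and 1 array left out 208 to 741. For 12 h minus 8.5 h, 1 array left out gave 1968 to 3341. Both were lowest without WT 12 h replicate 1. The block changed no call of the 4 genes. Time courses in 1 genotype and steps could not be fitted in a single run. With 2 arrays a group, only sizeable differences between times could pass.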

Other observations

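Dark minus light was below 0 in Atss3 for 65 of 68 measured plastid-encoded genes, with a median of −0.38 on the log2 scale, and in WT for 40 of 68, with a median of −0.07. Over all kept probe sets the medians were 0.04 in Atss3 and 0.05 in WT. Of the 68, 0 were called in Atss3, against 38.3% of kept probe sets, and 1 in WT, against 34.5%. That gene was psbM of photosystem II, which was lower in the dark there, at −0.57 (limma adjusted p = 0.0465). The 20 plastid photosystem genes had medians of −0.46 in Atss3 and −0.11 in WT. The 9 genes of the NDH complex had medians of −0.38 in Atss3 and 0.02 in WT, and the 12 genes of the cytochrome complex and ATP synthase had −0.34 in Atss3 and 0.03 in WT. The difference between genotypes in dark minus light was called for 0.0% of kept probe sets, so none of these gaps between genotypes passed its test.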
